A study of Mus musculus with 8 samples.

Results

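The binding sites of Myc were compared with those of E2f3 in the Rb-deficient villus of the mouse intestine. The deposited site lists held 4119 Myc sites and 14843 E2f3 sites, together 18962 of the 284230 sites in the 8 lists of the series. Sites of both factors counted as shared at a distance of at most 250 bp. A promoter site was one at most 1 kb from the start of a protein-coding transcript, and genes were sorted by whether Myc, E2f3 or both had such a site.

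Both lists came from villus cells labelled Rb KO, from mice of a mixed C57BL/6, 129 and FVB/N background in which the inducible, intestinal Ah-cre recombinase had deleted Rb. The antibodies against Myc and E2f3 were from Santa Cruz. No other allele or agent is named for these samples, and age is not given in the sources used here. The series holds E2f3 and Myc libraries of crypt and villus cells, Rb-deficient and control (labelled wild type), by ChIP-exo-seq. In this assay, chromatin bound by a factor is precipitated with an antibody, and an exonuclease trims the DNA up to the crosslinked protein. Each combination has 1 library, built from merged data per the names of the deposited files, and how many mice were merged is not given in the sources used here. There was therefore no replicate of either list, no test between them and no p-value. No input library was used here. A site list holds no expression, so it could not be used to check the deletion of Rb or the purity of the villus cells.

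E2F proteins pair with DP proteins and bind GC-rich motifs near the start sites of genes for S phase and mitosis. Rb holds E2Fs in check, and E2f3 is one of the E2Fs it binds. Myc pairs with Max, binds E-boxes such as CACGTG, and is known for genes of ribosome production, nucleotide synthesis and metabolism. Villus cells are the differentiated, normally non-dividing cells above the dividing crypt.

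The following stretches show what each class of promoter site looked like. All are from mm9, forward strand, read 5′ to 3′. In the first set, from the promoters with E2f3 but no Myc, capitals mark the E2F motif on either strand, which was TTCCCGC or one of its variants TTCGCGC, with a central change, TTGCCGC, with an earlier one, and TTGGCGC, with both. Srsf1 encodes a splicing factor (chr11:87860782-87860842), Hist2h4 a core histone (chr3:96067295-96067355) and Atad2 a chromatin-bound ATPase (chr15:57966920-57966980). All 3 stretches lay outside annotated exons.
Srsf1: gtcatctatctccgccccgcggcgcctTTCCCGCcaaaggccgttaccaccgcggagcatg
Hist2h4: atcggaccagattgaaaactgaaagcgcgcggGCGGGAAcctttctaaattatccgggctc
Atad2: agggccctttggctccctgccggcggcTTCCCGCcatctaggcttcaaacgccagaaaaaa

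In the second set, from promoters where Myc and E2f3 sites lay together, capitals mark the bases at which the Myc and the E2f3 site were placed. The predicted gene Gm10106 lay in the first 40 kb of assembled sequence of chromosome 9 (chr9:3031999-3032059), which holds copies of the gamma satellite, the tandem repeat of mouse pericentromeres. Ank1, for the membrane adaptor ankyrin 1, had its shared site in an intron (chr8:24206031-24206091), with both sites on the same base. Bbc3, for the p53-induced death protein Puma, had its sites in an intron (chr7:16896000-16896060), as did Taco1, for a mitochondrial translation activator (chr11:105928104-105928164). None of these stretches held an E-box or an E2F motif.
Gm10106: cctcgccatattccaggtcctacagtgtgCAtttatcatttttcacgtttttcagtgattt
Ank1: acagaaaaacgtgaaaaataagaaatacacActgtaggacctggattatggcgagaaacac
Bbc3: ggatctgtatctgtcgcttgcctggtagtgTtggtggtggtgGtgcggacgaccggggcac
Taco1: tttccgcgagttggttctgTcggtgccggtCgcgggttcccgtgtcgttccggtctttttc

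The third set holds the 3 genes whose best Myc promoter site had an E-box within 50 bp, which is in capitals. Ncl encodes nucleolin, a nucleolar protein of ribosome production, and its Myc site was in an intron (chr1:88255113-88255213). Dazap1 encodes an RNA-binding protein, with an intronic site (chr10:79727485-79727585). B230118H07Rik also had an intronic site (chr2:101461510-101461610).
Ncl: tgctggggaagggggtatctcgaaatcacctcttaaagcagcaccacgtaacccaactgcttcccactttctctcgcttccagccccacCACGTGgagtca
Dazap1: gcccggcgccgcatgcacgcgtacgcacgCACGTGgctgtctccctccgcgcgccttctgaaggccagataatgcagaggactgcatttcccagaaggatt
B230118H07Rik: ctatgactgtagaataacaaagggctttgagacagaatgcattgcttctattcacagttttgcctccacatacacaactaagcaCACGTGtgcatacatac

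Most Myc sites lay at E2f3 sites. Of the 4119 Myc sites, 3153 had an E2f3 site within 250 bp, which is 76.6% (exact 95% binomial interval 75.2 to 77.8%). Seen from the longer list, 3181 of 14843 E2f3 sites were shared, or 21.4% (20.8 to 22.1%). When the Myc positions were moved by 10 or 20 kb to either side, between 15 and 56 of them lay within 250 bp of an E2f3 site, a mean of 0.807%. These and all later intervals cover counting error only, since sites of 1 library are not replicates. The share depended on the lengths of the lists: when the E2f3 list was shortened to as many of its highest-scored sites as there were Myc sites, 44.6% of Myc sites were shared.

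Shared sites lay close to each other. Among the 3153 shared Myc sites, the median distance to the nearest E2f3 site was 16 bp, with quartiles at 7 and 30 bp, and 108 fell on the same base. The E2f3 site lay at the lower coordinate in 1568 and at the higher in 1477, so neither side predominated. The plot of distances shows a single narrow peak at 0.

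**Figure D1:**
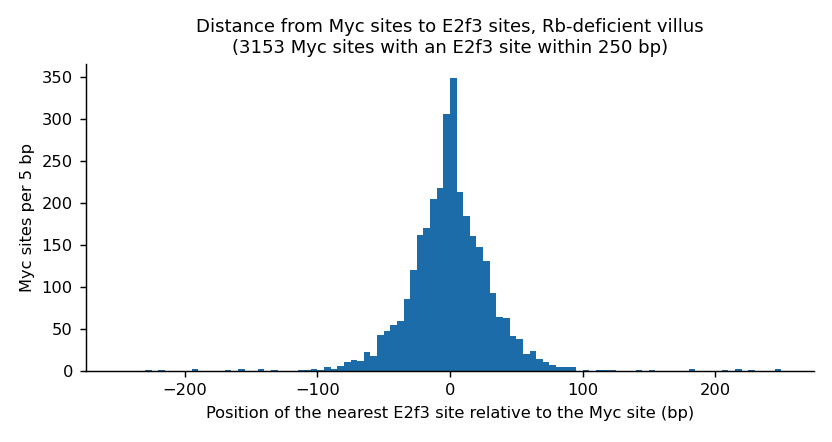
Distance in bp from each Myc site to the nearest E2f3 site within 250 bp, in bins of 5 bp, for the 3153 shared Myc sites of the Rb-deficient villus. The distances form 1 peak centred on 0, with quartiles of the absolute distance at 7 and 30 bp.

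Shared sites were rarely at promoters, whereas the E2f3 sites without Myc often were. Of the shared Myc sites, 87 of 3153 (2.76%, 2.22 to 3.39%) were promoter sites, and of the Myc sites without E2f3, 25 of 966 (2.59%, 1.68 to 3.80%). The 2 intervals overlapped. Of the E2f3 sites without Myc, 2790 of 11662 (23.9%, 23.1 to 24.7%) were promoter sites, against 86 of 3181 shared E2f3 sites (2.70%, 2.17 to 3.33%). The shared Myc sites fell mainly outside genes (51.1%) and in introns (40.7%), with 1.90% in exons. The promoter sites without Myc also sat closer to the start: their median distance was 124 bp and 44.4% (42.5 to 46.2%) lay within 100 bp, while the 86 shared E2f3 promoter sites had a median of 513 bp and 15.1% (8.30 to 24.5%) within 100 bp.

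The E2F motif followed the same division. Within 50 bp, it was present at 1586 of 11600 E2f3 sites without Myc that could be read in the reference (13.7%, 13.0 to 14.3%), against 0.578% in windows of the same length 2 kb to each side. Among their promoter sites it reached 38.9%, and among their other sites 5.70%. At the E2f3 sites shared with Myc it was present at 23 of 3071 (0.749%, 0.475 to 1.12%), beside 0.603% in the flanks. None of the 86 shared E2f3 promoter sites held it, which allows a share of up to 4.20%. The motif occurred in 4.81% of the 101-base windows centred on the 45975 annotated start sites.

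Where an E2f3 site without Myc had the motif, it lay exactly at the motif's centre in 1213 of 1586 (76.5%), as in the Srsf1 and Atad2 stretches above. Of the 23 shared E2f3 sites with the motif, 9 lay at its centre. The event caller may use sequence to place events, so the position on the motif is not independent of how the sites were called.

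The E-box was near flank level at shared sites. It stood within 50 bp of 46 of 3040 shared Myc sites (1.51%, 1.11 to 2.01%), with 1.09% in the flanks, a value just below the interval. The Myc sites without E2f3 had it at 19 of 891 (2.13%, 1.29 to 3.31%), with 0.730% in the flanks. The intervals of both classes overlapped. None of the 46 and none of the 19 Myc sites lay at the centre of the E-box, and in the Ncl stretch the E-box began 39 bp from the site. Start-site windows held it at 2.93%, and the E2f3 sites without Myc at 2.32% (2.05 to 2.61%), beside 1.16% in their flanks. The Myc antibody's list therefore held few E-boxes, and the label Myc could be checked no further from these sites.

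**Figure D2:**
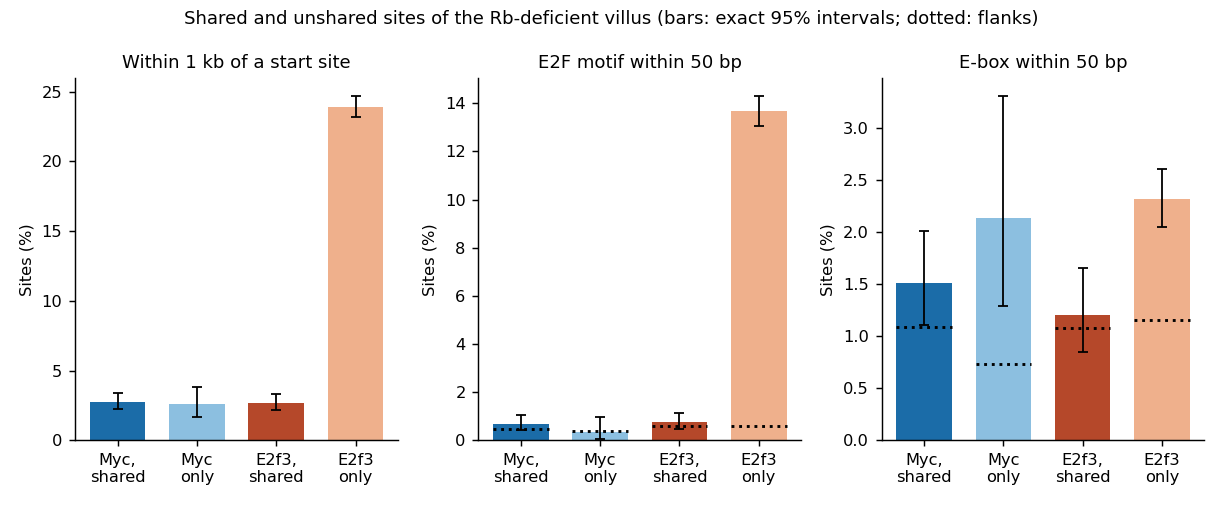
Percent of sites within 1 kb of a start site (left), with an E2F motif within 50 bp (middle) and with an E-box within 50 bp (right), for shared and unshared sites of each list. Error bars are exact 95% binomial intervals and dotted lines the share in windows 2 kb to each side. The E2f3 sites without Myc stand apart at 23.9% promoter sites and 13.7% with an E2F motif.

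The class of Myc sites absent from every E2f3 list was small. Only 177 of the 4119 Myc sites had no site within 250 bp in any of the 4 E2f3 lists of the series. Of the 151 of these that could be read, 5 had an E-box (3.31%, 1.08 to 7.56%), beside 0.662% in the flanks. The 2298 Myc sites found in all 4 E2f3 lists had an E-box at 1.39% (0.946 to 1.97%), beside 1.03% in their flanks. The 2 intervals overlapped.

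Base composition also differed between the classes. The median GC content of the 101 bases was 42.6% at shared sites of either list and at Myc sites without E2f3, the same as in their flanks. It was 46.5% at E2f3 sites without Myc and 64.4% at their promoter sites. The 31 bases at the site occurred once in the reference at 98.2% of shared Myc sites and 99.4% of E2f3 sites without Myc. This count does not cover copies missing from the assembly, such as most of the satellite.

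Shared sites ranked high in the E2f3 list. The authors' score ran from 2 to a cap of 999 and was used to rank sites within a list. Its meaning and its scale between lists are unknown here, so scores of different lists are printed as deposited and were not compared. The median percentile was 76.3 for shared and 42.4 for unshared E2f3 sites, and 56.9 for shared and 29.3 for unshared Myc sites. The shared part of the E2f3 list rose from 4.31% in the lowest decile by score to 49.3% in the highest. The shared part of the Myc list rose from 51.7% in the lowest decile to 93.0% in the ninth and was 89.3% in the highest. Across the 3153 shared Myc sites, the Myc score and the score of the nearest E2f3 site had a Spearman correlation of 0.61, given as a description of sites that share their position.

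At the top of the E2f3 list, 2 kinds of site stood side by side. In the highest decile, 753 sites were not shared, and of these 62.2% (58.6 to 65.6%) were promoter sites and 51.7% (48.0 to 55.3%) of those readable held the E2F motif. The 731 shared sites of the same decile had 4.51% (3.13 to 6.28%) promoter sites and 0.728% (0.237 to 1.69%) with the motif. Both kinds thus reached the highest scores.

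**Figure D3:**
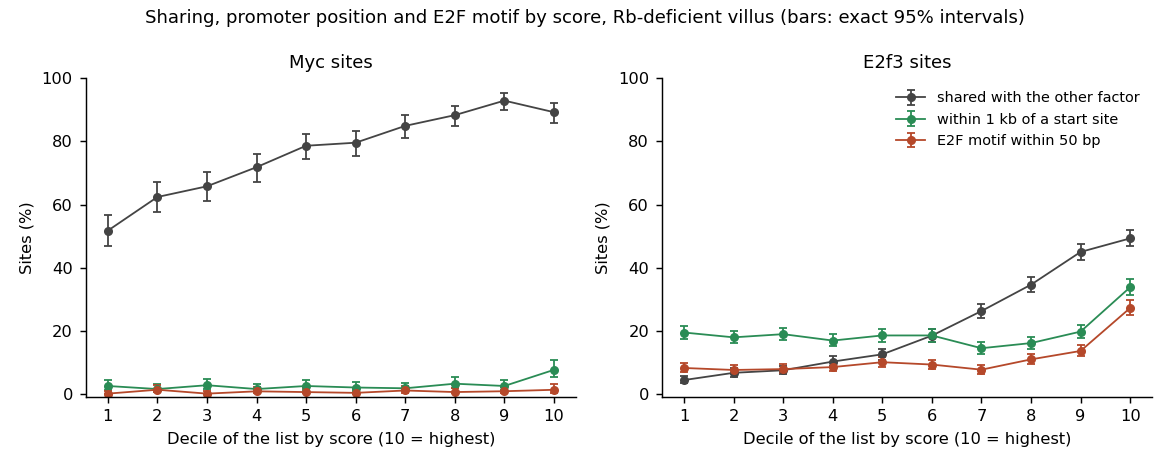
Percent of Myc sites (left) and E2f3 sites (right) that were shared, at promoters or near an E2F motif, by decile of each list from the lowest to the highest score, with exact 95% binomial intervals. Sharing rises in both lists, and in the E2f3 list promoter sites and the motif reach 33.8% and 27.2% in the highest decile, from 19.7% and 13.5% in the ninth.

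Shared sites were also found in the other 6 lists of the series, with either antibody. Of the 3153 shared Myc sites, 95.3% had a site within 250 bp in the E2f3 list of Rb-deficient crypt and 97.1% in its Myc list. In control crypt the shares were 95.8% for E2f3 and 96.6% for Myc, and in control villus 76.4% and 81.4%. All 6 other lists held 1999 of them (63.4%, 61.7 to 65.1%), and 3 were in none. With positions moved, the mean share in the 6 lists was between 0.595% and 3.45%, the highest in the control crypt Myc list of 159181 sites.

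Most of the remaining Myc sites were found elsewhere too. Of the 966 without E2f3, 79.0% were in the Myc list and 66.4% in the E2f3 list of Rb-deficient crypt, 39.9% in the control villus Myc list and 34.0% in the control villus E2f3 list. Only 54 (5.59%) were in none of the 6.

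The E2f3 sites without Myc differed by this measure with their position and motif. The 1084 at promoters with an E2F motif were found in the E2f3 lists, at 90.5% in Rb-deficient crypt, 76.8% in control crypt and 45.2% (42.2 to 48.2%) in control villus. In the Myc lists they were found at 7.75% in Rb-deficient crypt, 5.63% in control crypt and in 0 of 1084 in control villus, which allows up to 0.340%. With their positions moved, the mean shares in these Myc lists were 1.06%, 3.87% and 0.161%. The 1706 promoter sites without the motif were found at 78.8% for E2f3 and 17.3% for Myc in Rb-deficient crypt, 54.5% and 18.7% in control crypt, and 16.1% (14.3 to 17.9%) and 3.69% (2.85 to 4.70%) in control villus. The 8872 away from promoters were found about as often with either antibody: at 71.6% for E2f3 and 68.9% for Myc in Rb-deficient crypt, 77.1% and 84.3% in control crypt, and 27.4% (26.4 to 28.3%) and 27.3% (26.3 to 28.2%) in control villus. The lists differ in length, and what the antibody, the shared chromatin or the calling contributed to sites found with both antibodies was not tested.

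**Figure D4:**
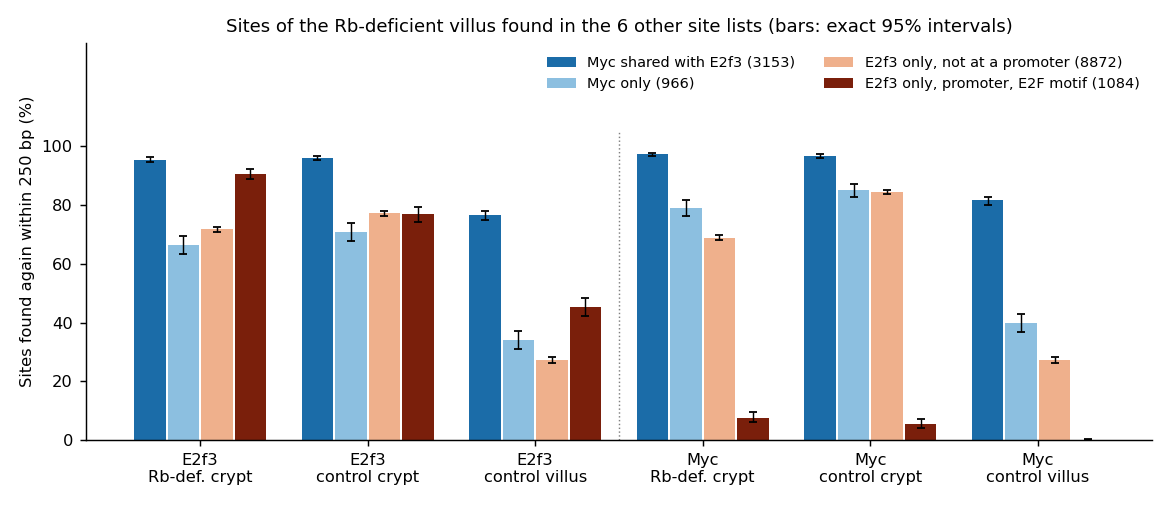
Percent of Rb-deficient villus sites with a site within 250 bp in each of the 6 other lists, E2f3 lists on the left and Myc lists on the right, with exact 95% binomial intervals and the number of sites per class in the legend. Promoter sites of E2f3 with an E2F motif are found in E2f3 lists and hardly in Myc lists, while shared sites are found in all 6.

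At the level of genes, Myc reached few promoters and E2f3 many. Of 22232 protein-coding genes, 94 had a Myc promoter site (0.423%) and 2760 an E2f3 promoter site (12.4%). Both were present at 77 genes (0.346%), Myc only at 17 (0.0765%) and E2f3 only at 2683 (12.1%). Thus 77 of the 94 Myc genes (81.9%) also had E2f3, and with the E2f3 list shortened to the length of the Myc list, 50% did. Without the sites that share a 16-base word with the satellite block of chromosome 9, 66 genes had both, 16 had Myc only and 2682 had E2f3 only.

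The 77 genes with both owed this to shared sites in 75 cases. An E2F motif stood at an E2f3 promoter site of 8 of them, in each case at a site away from Myc, and an E-box at a Myc promoter site of 1, B230118H07Rik. By contrast, 1157 of the 2683 genes with E2f3 only (43.1%) had an E2F motif at an E2f3 promoter site. The promoters with both were found again as promoters bound by Myc in Rb-deficient crypt in 72 of 77, and in control villus in 62 of 77 for E2f3 and 58 of 77 for Myc. Of the genes with E2f3 only, 2313 (86.2%) had E2f3 and 533 (19.9%) had Myc at the promoter in Rb-deficient crypt, and 770 (28.7%) had E2f3 and 72 (2.68%) had Myc in control villus. For comparison, of all 22232 genes, 4493 had E2f3 and 1841 had Myc at the promoter in Rb-deficient crypt. In control villus the numbers were 994 and 164.

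Of the 10 genes with both that ranked highest in both lists, 8 lay in the satellite block of chromosome 9. They are predicted genes, and among them Gm10106, Gm10718 and Gm10719 reached the cap of 999 in both lists. Gm11167 scored 279.61 for Myc and 252.73 for E2f3, and Gm17535 233.38 and 168.12. The block held 39 Myc sites, 32 of them shared, and 35 E2f3 sites, 30 of them shared. Because its repeats are nearly identical, the reads of these genes cannot be assigned to one of them with certainty. In all, 10 of the 77 genes had their start in the block. Ank1, on chromosome 8, also shared a 16-base word with it and scored 35.81 for Myc and 48.81 for E2f3. Over all Myc promoter sites, such words were found at 24 of 87 shared (27.6%) and 7 of 25 unshared sites (28.0%), against 2 of 2790 E2f3 promoter sites without Myc. The windows 2 kb away from the shared promoter sites held them at 26.4%, since the block is longer than that distance.

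Outside the satellite, Taco1 ranked highest among the genes with both, at 30.9 for Myc and 200.4 for E2f3, 11 bp apart. It was found in all 6 other lists, with 999 for E2f3 in both crypt lists. Bbc3 scored 22.42 for Myc and 50.31 for E2f3, with the sites in the TGG repeat shown above. It too was in all 6 other lists, among them the control villus Myc list at 24.97 and the control crypt Myc list at 999. In the latter list, 1531 sites stood at the cap. Bard1, whose protein partners Brca1 in DNA repair, had a Myc site of 4.31 at -515 bp from the start, with 1 of its 3 E2f3 promoter sites within 250 bp. Its highest-scored E2f3 site, with an E2F motif, was another, 125.61 at -31 bp. The histone gene Hist1h2an had a Myc site of 3.83 at 837 bp and an E2f3 site of 8.89 at -78 bp, so the 2 were not at the same place. The odour receptor genes Olfr693 (8.99 and 12.35) and Olfr1444 (4.12 and 12.86) had both. They were 2 of 1113 such genes, a share of 0.180% beside 0.346% of all genes.

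Genes with Myc but no E2f3 were mostly low in the Myc list. The highest was the predicted gene Gm10801 on chromosome 2 at the cap of 999, with a word of the satellite block and no promoter site in any of the 6 other lists. The next were 1700030F18Rik at 15.84, Ppp2r1b, a scaffold subunit of protein phosphatase 2A, at 10.42, Golm1, a Golgi membrane protein, at 7.56, and 4930528F23Rik at 6.99. Each of these 4 had an E2f3 promoter site in both crypt lists. Ncl followed at 4.83, at percentile 29.1 of the Myc list, 867 bp downstream of the start. Its intronic site with the E-box was also in the Myc lists of Rb-deficient crypt (47.25) and control crypt (28.81) and in no E2f3 list. Dazap1 lay at the lower end of the list at 2.01, and the same place had a Myc site in Rb-deficient crypt (74.38) and an E2f3 site in Rb-deficient crypt (52.02) and in control crypt (76.02). Of the 17 genes with Myc only, Ncl and Dazap1 had an E-box.

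The 10 E2f3-only genes with the highest scores included core histone genes. At the cap of 999 were Hist1h2bn, Hist1h3g and Hist2h4, core histone genes of near-identical families whose reads may be split between copies. The Hist1h2bn site lay outside genes, at 806 bp from its start, and those of Hist1h3g and Hist2h4 at -132 and -91 bp. Also at the cap were Neil3, a DNA glycosylase, Srsf1, and Dclre1a, a crosslink repair nuclease, which shares its site with the divergent neighbour Nhlrc2. Cdca3, a mitotic regulator, and its neighbour Usp5 shared a site of 304.89, and Atad2 had 266.2. In Rb-deficient crypt each of these 10 genes had an E2f3 promoter score of 999. A Myc promoter site there was listed for Atad2 alone among them, at 13.96.

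In the gene lists described next, counts are read against the 12.1% of all genes with E2f3 only and the 0.423% with Myc. At 0.423%, fewer than 1 Myc gene would fall in each of them, so a count of 0 for Myc is not a result about a list. Among 20 housekeeping genes, 10 had E2f3 only (50%), so shares above 12.1% were not particular to lists of the cell cycle or growth.

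The genes of the E2F pathway itself often had E2f3 at the promoter. Of the 13 E2Fs, DP partners and pocket proteins, 9 had E2f3 only (69.2%, against 12.1% of all genes) and 0 had Myc. E2f3 itself scored 232.38, the repressor genes E2f8 and E2f7 127.47 and 13.93, and the activator E2f2 46.78. The pocket protein genes Rbl1 and Rb1 had 69.36 and 5.64, and Tfdp1, for the DP partner, 66.91. E2f5 (3.67) and E2f6 (3.51) were low, at percentiles 18.8 and 17.0 of the list. No promoter site was listed for E2f1, E2f4, Rbl2 or Tfdp2.

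Of 14 genes of the Myc network, 5 had E2f3 only (35.7%), 0 had Myc and 9 had neither. Myc itself had an E2f3 site of 18.58 at -81 bp, with an E2F motif, and its paralog Mycn one of 54.69 at -98 bp. Mxd3 and Mnt, for repressors that compete with Myc for Max, had 123.89 and 34.22, and Mlxipl, for the glucose-sensing factor ChREBP, 50.58. Max had none.

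Most genes of the cell cycle lists had E2f3 at their promoters. Of 44 DNA replication genes, 33 (75%, against 12.1% of all genes) had E2f3 only, led by the helicase subunit Mcm3 (163.21), the primase gene Prim1 (144.59), Mcm4 (142.17) and the licensing factor Cdc6 (139.64). Of 45 genes of G2/M and mitosis, 34 did, led by Incenp (246.38) and Aurkb (178.17), both of the chromosomal passenger complex, and the topoisomerase Top2a (183.59). The 2 lists differed in sequence: the E2F motif stood at the best E2f3 site of 26 of the 33 replication genes and of 7 of the 34 mitosis genes. Over all 2683 genes with E2f3 only, it stood at the best site of 1068 (39.8%). Of 17 genes of nucleotide synthesis, 12 had E2f3 only, led by Tyms (188.24) and the ribonucleotide reductase genes Rrm1 (103.85) and Rrm2 (86.62). The cyclin E genes Ccne1 (36.55) and Ccne2 (22.62) were among 9 of 15 G1/S genes. Of 26 repair and checkpoint genes, 20 had E2f3 only, among them the checkpoint kinase gene Chek1 (97.56), and Bard1 had both.

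In the growth lists, the classes Myc is known for, E2f3 was at some promoters and Myc at that of Ncl. Of 34 ribosome biogenesis genes found in the annotation, 12 had E2f3 only (35.3%), led by Nop58 (219.94) and Nolc1 (100.09), and 1 had Myc only. Of 30 growth and metabolism targets of Myc, 11 had E2f3 only (36.7%), led by the amino acid transporter gene Slc3a2 (19.49), Shmt1 (13.79), of one-carbon metabolism, Odc1 (11.06), of polyamine synthesis, and Cad (9.02), of pyrimidine synthesis. Of 86 cytosolic ribosomal protein genes, 21 had E2f3 only (24.4%), led by Rps20 (101.86) and Rpl3 (91.95), and 0 had Myc. The counts for aminoacyl-tRNA synthetases were 5 of 20 and for mitochondrial ribosomal proteins 21 of 76, with 0 for Myc.

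Of 19 histone chaperone and chromatin genes, 15 had E2f3 only (78.9%), led by the chaperone gene Nasp (232.43), the histone variant gene H2afv (226.97) and the methyltransferase gene Ezh2 (127.53). Of 67 replication-dependent histone genes, 20 had E2f3 only (29.9%) and 1, Hist1h2an, had both. Of 19 splicing factor genes, 11 had E2f3 only (57.9%), with Srsf4 (51.62) next after Srsf1. The count was 10 of 20 for housekeeping genes (50%). The lists of the Myc network, ribosome biogenesis, growth and metabolism, aminoacyl-tRNA synthetases, ribosomal proteins and replication-dependent histones all stood lower. For nuclear genes of oxidative phosphorylation the count was 14 of 83 (16.9%), near the 12.1% of all genes.

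Within 5 kb of a start, Myc sites were listed for 499 genes, 2.25% of all, including the 94 with a promoter site. Among the lists, the others included Fen1 and Mcm8, 2 of 44 replication genes, and Birc5, Bub3 and Racgap1, 3 of 45 mitosis genes. Wdr43 and Ncl made 2 of 34 ribosome biogenesis genes. Hk2, for a hexokinase, was 1 of 30 growth and metabolism genes, and Yars 1 of 20 aminoacyl-tRNA synthetase genes. Hist1h2bp and Hist1h3i with Hist1h2an made 3 of 67 replication-dependent histone genes. Of 1113 odour receptor genes, 9 had such a site (0.809%). The lactase gene Lct was the only 1 of 20 villus enterocyte genes with such a site, and Smoc2 the only 1 of 19 stem cell and crypt genes. Counts this small are not a result about any of these lists.

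Among genes of intestinal identity, none of the 20 villus enterocyte genes had a promoter site of Myc or E2f3. Stem cell and crypt genes and intestinal transcription factors were near the 12.1% of all genes with E2f3 only. Of 19 stem cell and crypt genes, 3 had E2f3 only (15.8%): Axin2 (9.68), Lrig1 (3.91) and Hopx (3.67). Of 20 intestinal transcription factors, 3 did (15%): Elf3 (48.5), Gata4 (8.55) and Klf5 (4.85). None of the 12 immune and none of the 12 stromal genes had a promoter site, and of the 12 secretory genes 1 did, Agr2 (4.15, E2f3).

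**Figure D5:**
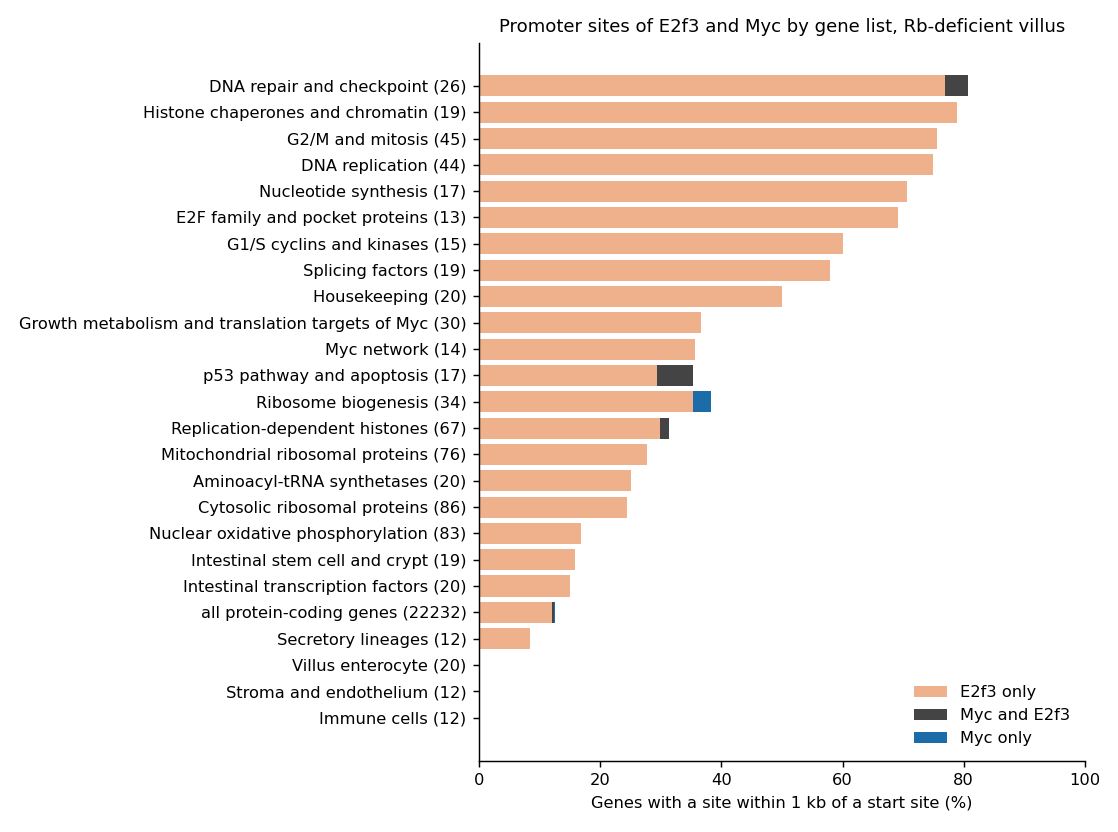
Percent of genes in each list with a promoter site of E2f3 only, of Myc and E2f3, or of Myc only, with the number of genes in parentheses and all protein-coding genes for comparison. The lists of the cell cycle stand at 60 to 81% with E2f3, and Myc appears at 1 gene each in 4 lists. Odour receptor genes are left out.

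The same comparison in the nearest other conditions gave other proportions. In Rb-deficient crypt, 50.5% (49.9 to 51.1%) of 31397 Myc sites were shared with E2f3, and in control villus 55.7% (54.6 to 56.9%) of 7223. The E2f3 lists held 27396 and 7405 sites there, against 14843 beside 4119 Myc sites here. The 76.6% shared here fell to 44.6% with the E2f3 list cut to the length of the Myc list. The lists of the other conditions were not cut in this way, so what list length contributed to the higher share here was not tested. The promoter share of shared Myc sites was 2.26% (1.82 to 2.77%) in control villus and 4.69% (4.36 to 5.03%) in Rb-deficient crypt, beside 2.76% here. The E-box separated the crypt: it stood at 9.86% (9.39 to 10.3%) of the crypt's Myc sites without E2f3, against 2.13% here and 1.21% (0.858 to 1.66%) in control villus. In Rb-deficient crypt, 129 of the 743 shared promoter sites had an E-box, compared with 1 of 87 here and 0 of 91 in control villus.

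Part of the gap to the crypt went with the length of the list. The whole crypt Myc list reached 1841 of 22232 genes, among them 16 of 34 ribosome biogenesis genes and 25 of 86 cytosolic ribosomal protein genes. Its 4119 highest-scored sites reached 224 genes, with 3 and 9 from these lists. The villus list of the same length reached 94 genes, with 1 and 0. With Myc at 0.423% of all genes in villus, fewer than 1 gene would fall in either list, so the 1 and 0 are not a result about them. The E-box share was 3.37% (2.84 to 3.97%) for those 4119 crypt sites and 1.65% (1.28 to 2.10%) for the villus sites. With 1 library each, these are differences between libraries, and depth and tissue cannot be told apart.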

How the data were processed

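ChIP-exo-seq site lists of 8 libraries were used, 1 per group. Reads were processed with Bowtie2 (2.2.1) and MACS2 (2.0.10) on mm9, per the submitters' processing notes. Per the deposited files' names, the sites are GEM events overlapping MACS2 peaks, from merged data with duplicates kept. GEM's settings, all thresholds and the read numbers are unknown here, and so is the depth. The authors' deposited score was used to rank sites within a list. Deposited positions were read as counting from 0, and 1 was added.

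Sequence came from NCBIM37 (mm9) and start sites from GENCODE M1, 45975 of 22232 genes. Sites on contigs outside the reference (188 Myc, 172 E2f3) stayed in overlaps and received no gene or motif. Overlap, motif and interval functions (Python 3.11.15, pandas 2.3.3, scipy 1.17.1, pysam 0.24.0) were tested on simulated lists. Intervals are exact 95% binomial (Clopper-Pearson) and cover counting error only. With 1 library per group there was no test.

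Named genes were the 10 with both factors ranked highest by the lower percentile of their best sites, the 10 highest-scored with 1 factor only, members of the 25 gene lists with Myc, the E2F family and the Myc network. The highest-scored members of other lists, the E-box genes and the genes with Myc within 5 kb were added after their values were seen. Some genes are not reported here. The members, lists and comparisons were chosen with earlier results of these data known. Alternatives were other sharing distances, promoter and motif windows, 1 start site per gene, the sites above each list's median score, lists of equal length, and, added later, no sites with words of the chromosome 9 block.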

Additional observations from a re-analysis of the deposited data

How the results depend on the processing

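Each value here is a count or a share, which cannot change sign, so none could reverse. Some orders between classes changed. At equal list length, genes with both no longer outnumbered genes with Myc only. With promoter windows of 500 bp and 5 kb, promoter sites were slightly rarer among shared Myc than among Myc-only sites. They stayed most frequent among E2f3-only sites. With a motif window of 250 bp, the E2F motif at shared E2f3 sites fell just below its flanks. The share of Myc sites at E2f3 sites was 81.0% among sites above each list's median score and 44.6% at equal list length. For E2f3 sites at Myc sites, the shares were 22.8% and 44.1%. Genes with both numbered 36 with a promoter window of 500 bp, 405 with 5 kb, 51 with 1 start site per gene, 44 above the median scores and 47 at equal length. Genes with Myc only numbered 94, 8 and 47 with 5 kb, above the median scores and at equal length, and genes with E2f3 only 1526 and 981 with the last 2. At equal length, 50% of Myc genes had E2f3. With 500 bp and 5 kb, promoter sites made up 1.27% and 11.7% of shared Myc sites, 1.45% and 12.0% of Myc-only sites, and 20.6% and 32.2% of E2f3-only sites. With motif windows of 25 and 250 bp, the E-box was at 0.526% and 7.90% of shared Myc sites (flanks 0.559% and 5.43%) and at 1.12% and 9.20% of Myc-only sites (flanks 0.112% and 4.99%). The E2F motif was at 0.296% and 2.04% of shared Myc sites and at 12.6% and 18.6% of E2f3-only sites (17.3% above the median score). With 250 bp it was at 2.36% of Myc-only and 2.12% of shared E2f3 sites, beside 2.36% and 2.26% in flanks. Windows and shorter lists change what is counted by construction. No paired analysis was possible because each group had 1 library. Leaving out a replicate was not possible for the same reason. Unknown depth limits every comparison between lists.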
